A study of Saccharomyces cerevisiae with 2 samples.

Results

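The genes described here encode the calcium signaling core of *Saccharomyces cerevisiae*: calmodulin (*CMD1*), the calcineurin subunits *CNA1* and *CNB1*, the calcineurin regulator *RCN1*, the transcription factor *CRZ1*, the calcium transporters *PMC1*, *PMR1* and *VCX1*, and the calmodulin-dependent kinases *CMK1* and *CMK2*. Members were the probe sets of Yeast Genome S98 arrays that the array annotation names for 1 of these genes. All 10 genes were found, with 11 probe sets, among 5656 genes with a probe set named for a single gene. Of the 10, *CNB1* had 2 probe sets and every other gene had 1. The probe sets are groups of short oligonucleotides for 1 transcript, and their values are intensities on a linear scale, so the level of 1 gene cannot be set against that of another.

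In yeast, calmodulin binds calcium and activates calcineurin, a protein phosphatase made of a catalytic A subunit and a regulatory B subunit. Calcineurin removes phosphate from Crz1, which then enters the nucleus and activates genes of ion transport and of the cell wall, several of them among the genes described here. Pumps of the vacuole and the Golgi return cytosolic calcium to its resting level.

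The 2 deposited arrays are duplicates of an *sdh3*Δ strain, in which the gene for a membrane anchor subunit of succinate dehydrogenase was deleted from CENPK 113-5D, a *MATa* laboratory strain that requires uracil. The cells grew in aerobic batch culture in minimal medium with uracil, and RNA was taken when glucose stood at 20 g/liter. It is not stated whether the duplicates came from separate cultures, so the spread between them may be technical. Reference values are those of 3 arrays of the reference strain from an earlier study, which were printed beside the mutant values in a supplementary table of the paper. The strain, the study and the batch of arrays therefore cannot be told apart. Of 6679 rows in that table, sorted by the study's p-value, the first 1996 were held here.

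The deleted gene, *SDH3*, gave 22.0 and 29.3 in *sdh3*Δ and 528 to 558 in the reference. Background was the highest signal among 19 probe sets whose genes yeast does not have. It was 54.8 on *sdh3*Δ array 1 (replicate 1) and 92.1 on array 2 (replicate 2), and *SDH3* was below it on both. Of the markers of **a** cells, *MFA1*, *MFA2*, *STE2* and *BAR1* were above background on both arrays and *STE6* on array 1, while of the markers of alpha cells *MF(ALPHA)1* was above it on both arrays and *MF(ALPHA)2* and *STE3* on neither. Pearson's r between the mutant arrays was 0.90 for log2 values of the 5656 genes, which are not independent replicates.

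*CNA1*, a catalytic subunit of calcineurin, was the member that passed the test against the reference. Its intensity was 73.3 and 68.6 in the *sdh3*Δ arrays and 209, 203 and 211 in the reference arrays. The mutant duplicates lay close together and far below every reference array. The RNA is that of whole cultures, in which fewer cells with the transcript and less of it per cell cannot be told apart. The means were 71.0 ± 3.30 (SD, n = 2) and 208 ± 4.10 (SD, n = 3), so that *CNA1* was 2.93-fold lower in *sdh3*Δ, a log2 difference of -1.55 with a standard error of 0.46 (adjusted p = 0.011 from limma). On array 2 the mutant value was not above background. With values raised to background, *CNA1* was 2.53-fold lower, with a log2 difference of -1.34, and no longer passed (adjusted p = 0.065 from limma). Without *sdh3*Δ replicate 2 the adjusted p was 0.19, and without replicate 1 it was 0.072, at log2 differences of -1.50 and -1.60.

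*PMC1*, the calcium pump of the vacuole and a known target of Crz1, had intensities of 101 and 84.3 in *sdh3*Δ and of 211, 190 and 176 in the reference. Both mutant values lay below all reference values. The means were 92.7 ± 11.9 (SD, n = 2) and 192 ± 17.8 (SD, n = 3). The log2 difference of -1.06 had a 95% interval from -1.96 to -0.15 before adjustment. Limma's adjusted p was 0.15, so that *PMC1* was not called. The median log2 difference was -1.07 over the 1301 rows with reference values that were above background on at least 1 mutant array. The lower value of *PMC1* is therefore that of a typical row held and is not particular to this gene. On array 2 *PMC1* was not above background either, and with that value raised it was 1.99-fold lower.

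*CMK1*, a calmodulin-dependent protein kinase, had intensities of 58.4 and 44.8 in *sdh3*Δ and of 84.8, 95.2 and 78.6 in the reference. The groups did not overlap. On array 2 the mutant value was below background, and the reference values lay near that limit, although the background of the reference arrays themselves is not known. With values raised to background, the reference values to the higher limit of array 2, *CMK1* was 1.27-fold lower, a log2 difference of -0.34. This raised the reference values of 84.8 and 78.6 as well, so 1.27-fold is not a lower bound. As given, the log2 difference was -0.75, with a 95% interval from -1.65 to 0.16, and limma's adjusted p was 0.49.

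For these comparisons 1 standard error held for every gene, because limma gave infinite prior degrees of freedom on the deposited arrays, and the smallest log2 difference that passed was 1.29 in size. A gene's own spread thus carried no weight, and the close duplicates of *CNA1* did not enter its p-value. In all, 1 of the 3 members with reference values was called lower and 0 were called higher. Of the 1996 rows in which a call was possible, 34.1% were called lower and 2.40% higher, so that 1 of 3 is near the general share. Counted over all 6679 rows, 10.2% were called lower. The log2 differences of the 3 members were -1.55 (*CNA1*), -1.06 (*PMC1*) and -0.75 (*CMK1*). The median was -1.07 over the 1301 rows above background on at least 1 mutant array. The rows held here are those with the smallest p-values, so the 3 members are not an unselected sample of the 10. Both mutant arrays lay below all reference arrays in 88.2% of the 1996 rows and above all of them in the others. Non-overlap is thus a property of every row held. It is not a result about *CNA1*, *PMC1*, *CMK1* or the related genes described below. With 2 and 3 arrays there are 10 assignments, so the smallest p of an exact permutation test would be 0.1.

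**Figure D1:**
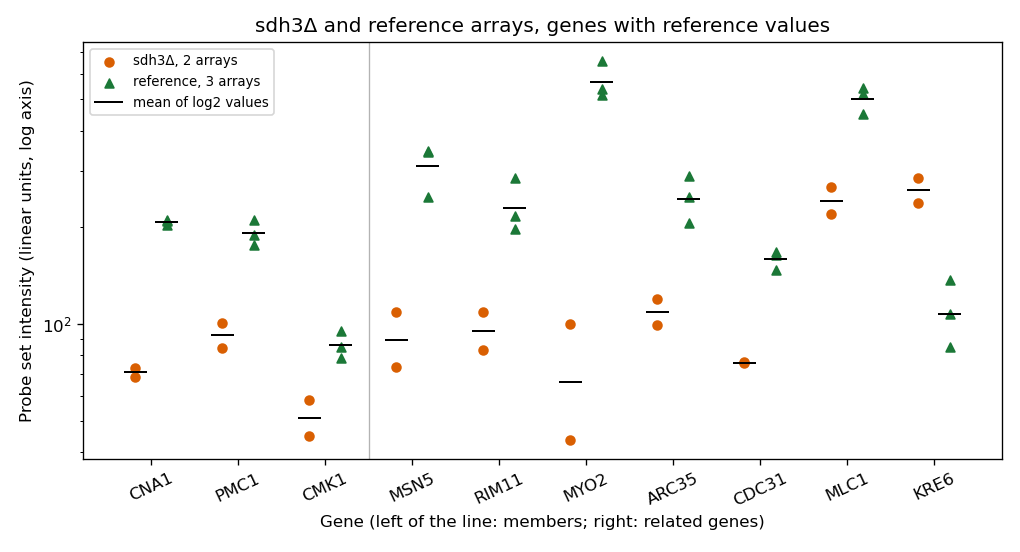
Intensity (log axis) of genes with reference values in the 2 *sdh3*Δ arrays (circles) and the 3 reference arrays (triangles), with the mean of log2 values as a line; the 3 members stand left of the vertical line and related genes right of it. *CNA1* lies at 68.6 to 73.3 in *sdh3*Δ and at 203 to 211 in the reference, while *KRE6* is the gene plotted whose mutant values lie above the reference.

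For the other 7 members only the mutant level was used here, since their rows lay outside those held. The number of arrays limits the precision of each level.

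Calmodulin is the calcium sensor of the pathway and is essential in yeast. *CMD1* had intensities of 419 and 573, a mean of 496 ± 109 (SD, n = 2), and was well above background on both arrays.

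*CNB1* encodes the regulatory subunit of calcineurin, which like calmodulin binds calcium through EF hands. Of its probe sets, 1 gave 625 and 1273 and the other 227 and 402. Both probe sets were higher on array 2, by 2.04-fold and 1.77-fold, and thus differed between the arrays in the same direction and by a similar amount. *RCN1*, whose product binds calcineurin and modulates its activity, had 58.2 and 117, a 2.02-fold difference, and lay just above background on array 1. *CRZ1*, the transcription factor that calcineurin activates, had 56.1 and 47.0, above background on array 1 alone and by little.

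Of the transporters, *VCX1*, a calcium/proton exchanger of the vacuole, had 364 and 549, both above background. *PMR1*, the calcium and manganese pump of the Golgi, had 366 on array 1 and 95.2 on array 2, a mean of 230.5 ± 191 (SD, n = 2). No other member differed as much between the duplicates. The 3.84-fold difference left *PMR1* just above background on array 2, and 1.38% of the 5656 genes had a ratio of array 2 over array 1 as low or lower. The mean of *PMR1* thus has an SD nearly as large as itself. *CMK2*, the paralog of *CMK1*, had 70.0 and 48.5, and was above background on array 1 alone.

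**Figure D2:**
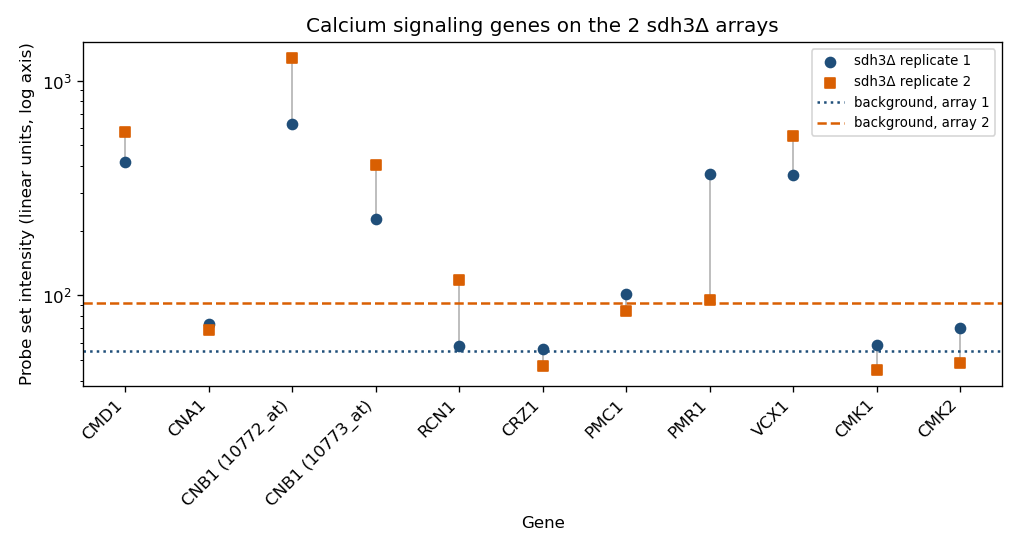
Intensity (log axis) of each member's probe set on *sdh3*Δ array 1 (circles) and array 2 (squares), with background on each array as a dotted and a dashed line. *CMD1*, *CNB1* and *VCX1* lie well above both lines, *PMR1* lies at 366 on array 1 and at 95.2 on array 2, and *CNA1*, *CRZ1*, *PMC1*, *CMK1* and *CMK2* are below the dashed line on array 2.

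In all, 5 of the 10 members (*CMD1*, *CNB1*, *RCN1*, *PMR1* and *VCX1*) were above background on both arrays, against 40.0% of all genes. On array 1 alone all 10 were, and on array 2 the same 5. For the remaining 5, a level in *sdh3*Δ is measured by 1 array, and the other gives only a bound.

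Between the duplicates, 2 of the 10 members, *PMR1* and *RCN1*, differed by more than 2-fold, against 16.7% of all genes. With probe sets averaged per gene on the log2 scale, 4 members were higher on array 2 and 6 lower, beside 2493 higher and 3163 lower of all 5656 genes. The median of the members' log2 ratios (array 2 over array 1) was -0.17, against -0.12 for all genes. Members higher on array 2 were *CMD1* (log2 ratio 0.45), *CNB1* (0.93), *RCN1* (1.01) and *VCX1* (0.59). Those lower were *CNA1* (-0.09), *CRZ1* (-0.25), *PMC1* (-0.26), *CMK1* (-0.38), *CMK2* (-0.53) and *PMR1* (-1.94). Under quantile normalization *CNA1* turned to 0.05, and with the ratio centred on its running median over mean value *CNA1* and *CRZ1* turned to 0.11 and 0.06. The same centring over mean value brought *CMD1* to 0.10, *CNB1* to 0.55 and *VCX1* to 0.32. *RCN1* came to 1.25 and *PMR1* to -1.97. On the log2 scale *CNB1* and *RCN1* differed between duplicates of 1 strain by 0.93 and 1.01, each a ratio of 2 single arrays. The -1.06 of *PMC1* between the strains is an unlike measure, a difference of means over 2 and 3 arrays. The duplicates of *PMC1* differed by -0.26.

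The 4 members higher on array 2 were also the 4 shortest genes, at 444 bp (*CMD1*), 604 bp (*CNB1*), 636 bp (*RCN1*) and 1236 bp (*VCX1*), and the 6 lower ones ran from 1341 bp (*CMK1*) to 3522 bp (*PMC1*). Spearman's rho between annotated gene length and log2 ratio was -0.70 over the 10 members and -0.11 over all 5656 genes, a description across genes that share both arrays. With all genes split by length into 5 groups, the 1139 shortest (up to 633 bp) had a median log2 ratio of 0.02 and the 1129 longest (from 2106 bp) one of -0.30. Of these longest genes 30.0% were higher on array 2, against 51.2% of the shortest. With the ratio centred on its running median over length, *CNA1*, *CRZ1* and *PMC1* came to 0.03, 0.00 and 0.06, while *PMR1* stayed at -1.62 and *RCN1* at 1.16. *CMK1* and *CMK2* came nearer to 0, at -0.15 and -0.30. Of the 4 short genes none did, with *CMD1* at 0.48, *CNB1* at 1.10 and *VCX1* at 0.60. Centring over mean value did bring *CMD1*, *CNB1* and *VCX1* nearer to 0, while *RCN1* moved away from it. Whether length or mean value goes with these ratios was not tested.

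**Figure D3:**
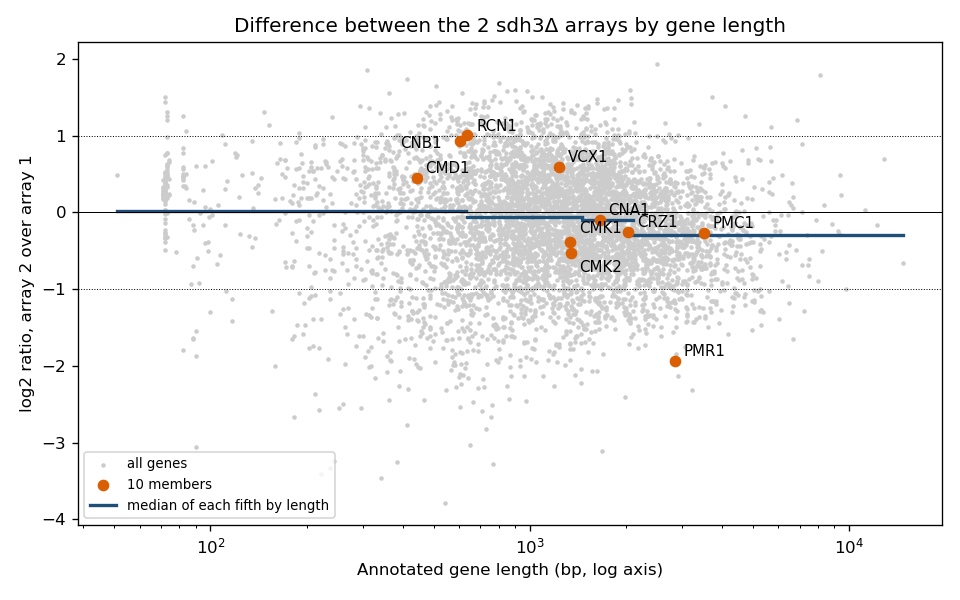
The log2 ratio of *sdh3*Δ array 2 over array 1 against annotated gene length (bp, log axis) for all genes (grey) and the 10 members (orange), with the median of each of 5 length groups as a line and 2-fold limits dotted. Members up to 1236 bp lie above 0 and those from 1341 bp below it, with *PMR1* at -1.94.

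Genes outside the members that act in the same pathway were taken from 4 lists. For calmodulin targets and related calcium-binding or kinase proteins, 12 genes were measured and 5 had reference values, of which 1 was called lower and 0 higher, against 34.1% and 2.40% of all rows with reference values. *MYO2*, the myosin that carries vesicles to the bud and binds calmodulin as a light chain, had 100 and 43.6 in *sdh3*Δ against 540, 657 and 515 in the reference. All mutant values lay far below the reference, by 8.59-fold (limma's log2 difference -3.10, adjusted p = 5.3e-09). With the array 2 value raised to background, *MYO2* was 5.91-fold lower. Its fold depended on which mutant array was used, at 5.67-fold without *sdh3*Δ replicate 2 and 13.0-fold without replicate 1, and the methods' t-test did not call it (adjusted p = 0.066). *MLC1*, a calmodulin-like light chain of the same myosin, had 267 and 220 against 452, 544 and 519 and did not pass (adjusted p = 0.15). Neither did *ARC35*, a subunit of the Arp2/3 complex, with a log2 difference of -1.17 (adjusted p = 0.089), nor the centrin gene *CDC31* with -1.07 (adjusted p = 0.14). *RCK1*, a kinase related to the calmodulin-dependent ones, was below background in *sdh3*Δ and listed at 30.4 to 36.5 in the reference, so no difference is given. Over the 4 genes above background on at least 1 mutant array the median log2 difference was -1.12, and over the 1301 rows of that kind it was -1.07. Between the duplicates the median log2 ratio of the list was -0.27, against -0.12 for all genes. Of its 12 genes, 4 (*MYO2*, *MYO4*, *IQG1* and *FRQ1*) were more than 2-fold lower on array 2, against 12.6% of all genes, and all 4 were below background on that array; the last 3 were named after their values were seen.

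For calcineurin paralogs, regulators, substrates and immunophilins, 12 of 13 genes were measured and 2 had reference values, 1 called lower and 0 higher, beside the same 34.1% and 2.40%. *MSN5*, the exportin that carries phosphorylated Crz1 out of the nucleus, had 109 and 73.4 in *sdh3*Δ against 344, 249 and 347 in the reference. It was 3.46-fold lower (log2 difference -1.79, adjusted p = 0.0023 from limma), and without *sdh3*Δ replicate 2 the call was lost (adjusted p = 0.19). Its array 2 value was not above background, and with that value raised *MSN5* was 3.09-fold lower. *RIM11*, a kinase of the glycogen synthase kinase family, had 109 and 83.5 against 285, 198 and 217 and did not pass (adjusted p = 0.053). *CMP2*, the other catalytic subunit of calcineurin, had no reference values here and is named outside the rule for naming genes. It gave 92.0 and 98.2 in *sdh3*Δ, above background on both arrays, and on array 2 by little. Between the duplicates the median log2 ratio of the list was -0.31, against -0.12 for all genes. Of the 12 genes measured, 2 were more than 2-fold lower on array 2, against 12.6% of all genes.

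Of known Crz1 targets outside the members, 8 of 9 genes were measured and 1 had reference values, with 0 called in either direction. That gene, *KRE6*, which acts in the synthesis of cell wall glucan, had 286 and 239 in *sdh3*Δ against 137, 85.0 and 108 in the reference. The log2 difference of *KRE6* was 1.28 (adjusted p = 0.053 from limma). Both mutant values lay above all reference values, but every row held here was free of overlap. Limma's adjusted p was 0.048 without reference replicate 1, 0.21 without reference replicate 2 and 0.11 without reference replicate 3. *KRE6* was called in 4 of 11 alternatives. Between the duplicates, 6 of the 8 targets were higher on array 2, against 2493 of all 5656 genes. The median log2 ratio of the targets was 0.64, against -0.12 for all genes. Of the 8 targets, 7 were above background on both arrays, against 40.0% of all genes. A comparison with genes of like intensity was not made. Named after their values were seen, *YPS1*, an aspartic protease of the cell surface, had 308 and 787, and *CHS1*, a chitin synthase, had 111 and 47.3. Crz1 targets among the members went both ways between the arrays: *RCN1* was higher on array 2, and *PMC1*, *PMR1* and *CMK2* were lower. The sodium pump gene *ENA1*, a Crz1 target, and *FPR1*, which encodes an immunophilin, had no probe set named for them alone and were not used.

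None of the 10 genes of calcium channels, exchangers and calcium homeostasis had reference values here. In *sdh3*Δ 3 of the 10 were above background on both arrays, against 40.0% of all genes. They were *SPF1* (464 and 687), *CSG2* (299 and 428) and *GDT1* (372 and 577), which encode membrane proteins of the endoplasmic reticulum or the Golgi. The plasma membrane channel genes *CCH1* and *MID1* were not, with 47.7 and 46.6 for *CCH1* and 103 and 69.2 for *MID1*. No gene of this list differed by more than 2-fold between the arrays, against 16.7% of all genes. These 5 genes were also named with their values known.

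**Figure D4:**
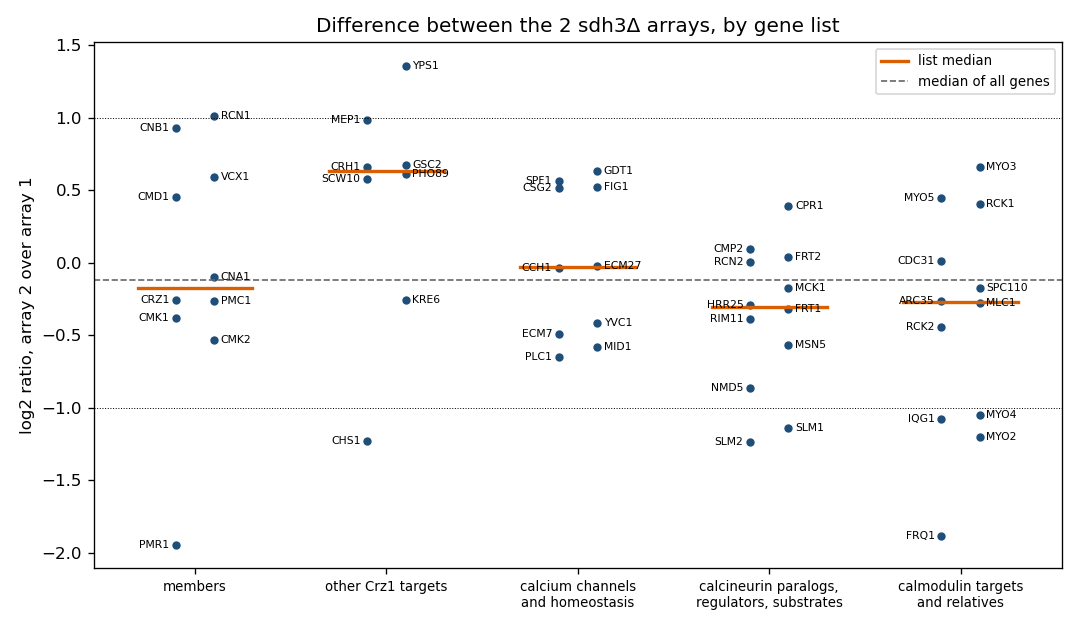
The log2 ratio of *sdh3*Δ array 2 over array 1 for the 10 members and 4 lists of related genes (points), with each list's median (orange), the median of all genes (dashed, -0.12) and 2-fold limits (dotted). The other Crz1 targets have the highest median, 0.64, and *PMR1* the lowest ratio shown, -1.94.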

How the data were processed

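Each deposited value is an intensity on a linear scale, made by the authors, who scaled the scans in Microarray Suite, version 5 per the labels, then normalized in dChip and computed 1 value per probe set with its Perfect Match model. Of 9335 probe sets, 6504 could be named for 1 gene (array annotation of 2016, gene table of assembly R64, used for names and lengths only), 328 for several and 2443 for none, beside 60 controls. Where a gene had several plain probe sets, their log2 values were averaged. The background limit was set with the data in view. Reference intensities came from the supplementary table, whose mutant values equal a deposited probe set to 6 digits in 1968 of 1996 rows. Its columns of p-values, q-values and fold changes were not used.

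Log2 values of 2 mutant and 3 reference arrays were compared with limma 3.58.1 in R 4.3.3 (two-sided), with the prior variance of 0.256 from the deposited arrays. Benjamini-Hochberg adjustment ran over 6679 rows, with 1 as the p-value of rows not held, so adjusted p-values are upper bounds and counts lower bounds. The threshold was 0.05. The fit was run on simulated data with 1 normal spread for all genes and no shift between studies. That run therefore does not cover unequal spreads or a batch difference. Named were all members, SDH3, and in each list the called genes and up to 4 more with the smallest adjusted p; exceptions are stated. The members and lists were chosen with earlier results of these data known, so neither is independent of them. No gene was ranked by likeness to the members, since 5 arrays cannot rank it. No sequences are shown. Other steps ran in Python 3.11.15 (pandas 2.3.3, numpy 2.4.6, scipy 1.17.1) and figures were drawn in matplotlib 3.10.9.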

Additional observations from a re-analysis of the deposited data

How the results depend on the processing

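The call of *CNA1* was kept in 7 of 11 alternatives, with log2 differences from -1.60 to -1.05 and adjusted p from 0.0078 to 0.24. Members called numbered 1 with all arrays, 0 to 1 when 1 array was left out (0 without either *sdh3*Δ replicate), 0 with values raised to background, 0 after adding 0.5 to the mutant's log2 values (*CNA1* adjusted p = 0.24) and 2 on log2(value + 50), where *PMC1* also passed (adjusted p = 0.041, log2 difference -0.76). *CNA1* passed the methods' t-test after adjustment (adjusted p = 0.033), while *MYO2* did not (adjusted p = 0.066), its only loss in 11 alternatives. Over all rows, 681 genes were called lower and 48 higher. When 1 array was left out, lower calls ran from 121 to 563 and higher calls from 9 to 42. Values raised to background gave 336 lower and 25 higher, the shift of 0.5 gave 254 and 98, the methods' t-test 98 lower and 33 higher, and a prior variance in 10 bins of mean value 806 and 18. *MSN5* was lost in 3 alternatives, under the shift (adjusted p = 0.085), under the methods' t-test (0.11) and without *sdh3*Δ replicate 2 (0.19). *KRE6* was called in 4, at its lowest adjusted p of 0.0050 under the shift, and *RIM11* in 2, on log2(value + 50) and with adjustment over annotated open reading frames. Members above background numbered 10 without *sdh3*Δ replicate 2 and 5 without replicate 1. With the 95th percentile of the same probe sets as background they numbered 6. That limit was 83.7 on array 2, where *PMC1* had 84.3. Members past 2-fold between the arrays numbered 2, and 1 on log2(value + 50), where the log2 ratio of *RCN1* was 0.63. Centring over gene length was added after the data were seen. It kept *PMR1* and *RCN1* past 2-fold and added *CNB1* at 1.10. No paired analysis was possible because the deposited samples form a single group. Without these changes, log2 differences under 1.29 in size did not pass. With the highest signal as background, there is only a bound on array 2 for 5 members.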
